A study of Saccharomyces cerevisiae W303 with 24 samples.

Results

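Disome VIII is a haploid budding yeast strain with a second copy of chromosome VIII, and disome VIII-*ubp6Δ* is the corresponding strain in which *UBP6* is deleted. These 2 strains were chosen by the titles of their arrays and make up 2 of 24 samples. The other 22 samples are 11 further disomes (disomes I, II, V and IX to XVI), each with *UBP6* deleted and with *UBP6* intact. RNA of every strain, from cells in rich medium (YEPD), was set against a reference RNA labelled wild-type on a dual-colour array, with 1 array per strain and therefore no replicate of any single strain. All strains are derivatives of W303 and, in the strain list of the study, MATa. Every listed strain with an extra chromosome VIII carries *HIS3* and *KanMX6*, each inserted between *STP2* (YHR006W) and *ERG11* (YHR007C), and the *ubp6Δ* strain carries *CaURA3* in place of *UBP6*. Which of the listed strains with *UBP6* was hybridised is not given in the labels. The listed wild-type control has *ade1* and *lys2* disrupted, so marker genes too set the disomes apart from it. Of 6176 nuclear open reading frames on the arrays, 278 have names that start with YH and lie on chromosome VIII (the duplicated genes) and 5898 lie on other chromosomes.

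In a haploid cell an extra chromosome adds a second copy of each of its genes while all other genes stay at a single copy, so the mRNA of a gene that follows its copy number lies at a log2 ratio of 1. Chromosome VIII of yeast holds genes of ribosome assembly, a subunit of the ribosome-bound chaperone complex, the *CUP1* metallothionein genes, enzymes of ergosterol synthesis, parts of the pheromone signalling cascade and *OPI1*, the repressor of phospholipid synthesis genes. Ubp6 is a deubiquitinating enzyme that binds the proteasome, and cells without it degrade proteasome substrates faster.

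The labels put the strain in Cy5 on both arrays. On the array of disome VIII-*ubp6Δ* the mean log2 ratio of Cy5 over Cy3 over the duplicated genes was −0.98, and the deposited per-sample table ran opposite to it, whereas on the array of disome VIII it was 0.76. The sign was therefore turned on the *ubp6Δ* arrays, and all ratios below are of strain over reference on that reading. *ADE1* and *LYS2*, disrupted in the listed wild-type control, then had log2 ratios of 7.12 and 3.62 in disome VIII-*ubp6Δ* and of 5.50 and 2.79 in disome VIII. The *UBP6* signal was 45.4 in the strain and 34.5 in the reference on the array of disome VIII-*ubp6Δ*, against 2114 in the strain and 2654 in the reference on the array of disome VIII. The low *UBP6* signal of the reference on the *ubp6Δ* array goes against its wild-type label. The references of the 2 arrays may thus differ, and a difference between the 2 arrays cannot be told apart from a difference between their references. Disome VIII lay on a slide with 7 other disomes, and disome VIII-*ubp6Δ* on another slide with 3 others of its genotype, disomes I, II and V. In disome VIII-*ubp6Δ* 5893 genes were measured and 94.5% of spots were well above background, and in disome VIII 5781 genes and 91.0%.

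The deviations of disome VIII-*ubp6Δ* from the mean of its genotype had a correlation over genes of 0.31 to 0.39 with those of its 3 slide-mates and of −0.46 to 0.06 with those of the 8 disomes on the other slide. For the array of disome VIII the range was −0.09 to 0.32 with 7 slide-mates and −0.50 to −0.26 with the other 4. Values within the slide are therefore given beside the results for genes of other chromosomes.

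The duplicated genes were higher on both arrays. Their direction on the *ubp6Δ* array was part of the ground for turning its sign, so it is no separate result there. In disome VIII-*ubp6Δ* their mean log2 ratio was 0.98 (SD 0.48 over 270 genes), a 1.97-fold level. In disome VIII it was 0.76 (SD 0.48 over 263 genes), a 1.70-fold level. Chromosome VIII had the highest mean of all chromosomes on each array. The next highest was chromosome I in both, at 0.23 in disome VIII-*ubp6Δ* and at 0.05 in disome VIII. Genes of a single array share its RNA and its normalization, so these SDs describe the spread among genes and not the error of a strain.

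**Figure D1:**
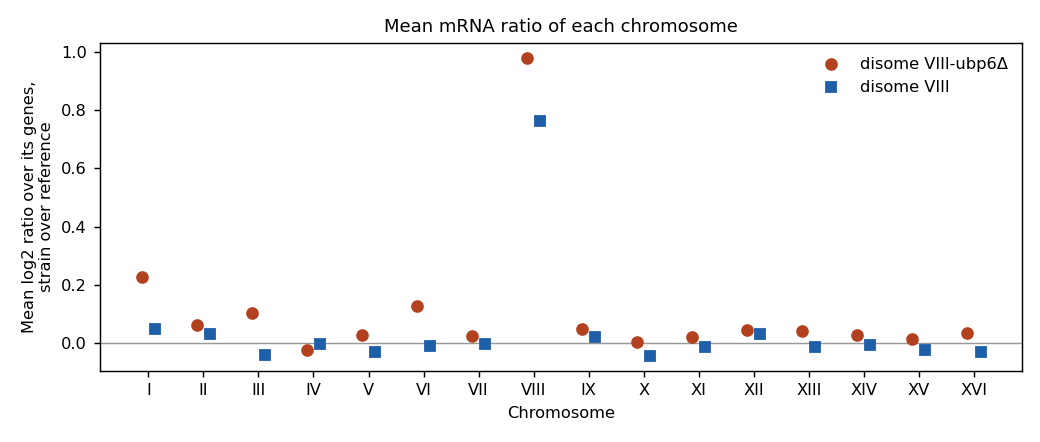
Mean log2 ratio of strain over reference for the genes of each chromosome (horizontal axis), with a circle for disome VIII-ubp6Δ and a square for disome VIII. Chromosome VIII stands at 0.98 and 0.76, and the next highest chromosome at 0.23 and 0.05.

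Nearly all duplicated genes lay above the reference. In disome VIII-*ubp6Δ* 98.1% of them lay above 0, 85.6% above 0.5 and 14.1% above 1.5. In disome VIII 95.8% lay above 0, 71.9% above 0.5 and 6.08% above 1.5. Of 259 duplicated genes measured on both arrays, 246 were above 0 on both and 2 were below 0 on both, and 163 were above 0.5 on both. The distance of a gene from the mean was shared only in part, since the correlation between the 2 arrays over these genes was 0.21, close to the 0.20 found over 5411 genes of other chromosomes. The array of disome VIII-*ubp6Δ* was higher by 0.20 on average (SD 0.59), and higher in 152 of the 259 genes. The corresponding difference in the other disomes over their own duplicated genes ran from −0.32 in disome XIV to 0.20 in disome I. The difference of disome VIII lies at the upper end of that range and inside it.

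The other 11 disomes have a single chromosome VIII and show how its genes vary without an extra copy. Of the duplicated genes 249 were measured on both arrays of disome VIII and in at least 6 other disomes. Over these, the mean of both arrays was 0.86 in disome VIII, and in the other disomes it ran from −0.13 to 0.02 (mean −0.07 ± 0.04, SD, n = 11). The difference of 0.92, a 1.90-fold level, gave p = 0.0833 in a two-sided exact permutation test over the 12 disomes, which is the smallest p that 1 disome against 11 allows. The other disomes had mean differences between 0.76 (disome XIV) and 0.95 (disome XIII) over their own duplicated genes, a range that holds the value of disome VIII.

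Single genes were tested with limma on the mean of the 2 arrays of each disome, disome VIII against the other 11, with Benjamini-Hochberg adjustment over 5617 genes. This assumes that disome VIII varies like the others. At an adjusted p of 0.05 and with the same sign on both arrays, 76 of the 249 duplicated genes rose (30.5%), where 1.35% of all genes tested did, and 0 fell. The difference was positive in 244 of the 249 and 194 had an unadjusted p under 0.05. In 170 of the duplicated genes the values of disome VIII lay above those of every other disome on both arrays. On the other chromosomes this held for 32 of 5368 genes. With only the slide-mates as the comparison the number that rose was 164, and with the slide as a term in a fit of all 24 arrays it was 151. With the values of other disomes on their own duplicated chromosomes kept in the fit it was 1, and with either array alone 0.

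The copy-number response of a gene, its difference between disome VIII and the other 11, had a median of 0.93 (quartiles 0.79 and 1.11) and an SD of 0.33 over the 249 genes. In 223 genes, 89.6%, it lay between 0.5 and 1.5, in 22 below 0.5 and in 4 above 1.5. Tested against 1, the value of an exact doubling, over 4115 duplicated genes of 12 chromosomes, 31 were below 1 (0.753%) and 1 above (0.0243%). On chromosome VIII 1 gene was below 1, YHL049C, and 0 were above, where 12 genes had an unadjusted p under 0.05 below 1 and 1 above. YHL049C, named after its values were seen, is an open reading frame without a gene symbol near the left end of the chromosome. In the other disomes its log2 ratios lay between −0.38 and 0.70 (median 0.46) with *UBP6* deleted. With *UBP6* intact they lay between −0.19 and 0.94 (median 0.44), and disome VIII lay inside both ranges. Its response was 0.01 (adjusted p = 0.0360 by limma), with log2 ratios of −0.05 in disome VIII-*ubp6Δ* and 0.74 in disome VIII.

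Responses were also counted by place along the chromosome. The order of genes was taken from RefSeq (assembly R64), which lists 247 of the 249 genes. Among the 10 outermost genes of the left end 5 responded by less than 0.5, and among the 10 outermost of the right end 4 did. Between them 12 of 227 genes (5.29%) did. The median response was 0.56 at the left end, 0.62 at the right end and 0.94 between them. At the left end the median log2 ratio was 0.77 in disome VIII-*ubp6Δ* and 0.63 in disome VIII, and at the right end it was 0.80 in disome VIII-*ubp6Δ* and 0.31 in disome VIII. Many genes near yeast chromosome ends have close copies elsewhere in the genome, and whether the probes also read such copies was not tested.

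**Figure D2:**
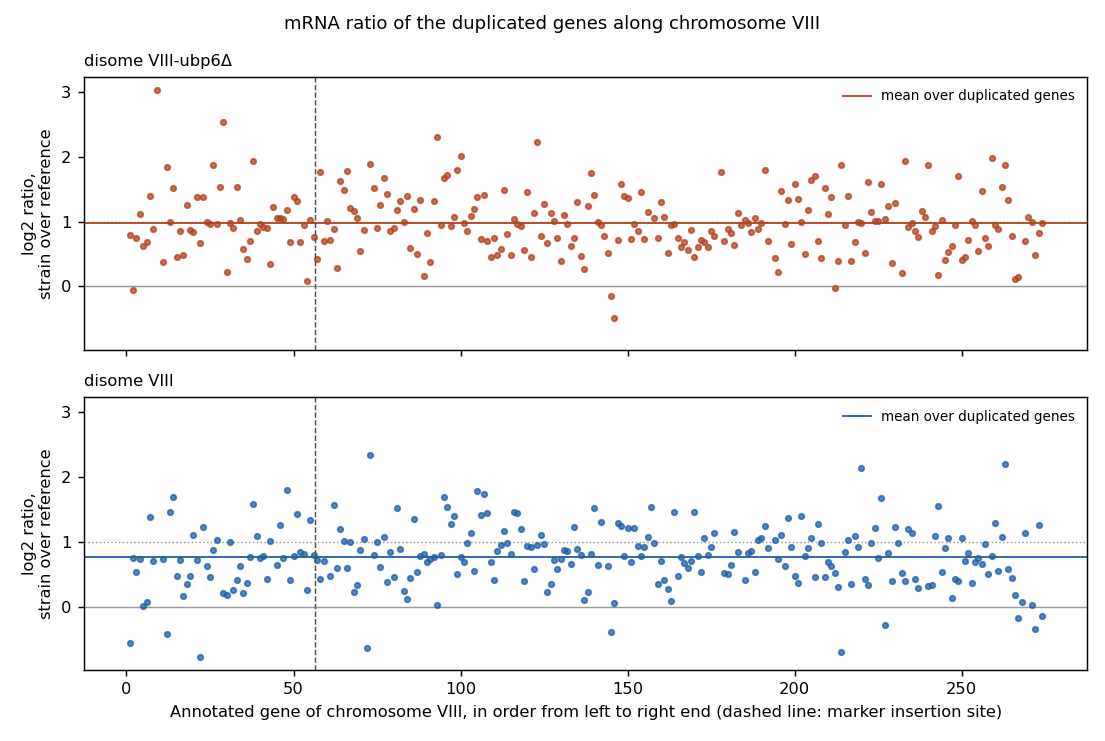
Log2 ratio of strain over reference for each measured gene of chromosome VIII (points) against its place in the gene order from the left to the right end, in disome VIII-ubp6Δ (upper panel) and disome VIII (lower panel). Solid coloured lines mark the means of 0.98 and 0.76, the dotted line a log2 ratio of 1 and the dashed line the place of the inserted markers. Most points lie above 0 along the whole chromosome.

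The genes beside the inserted markers did not form a block of low values. To the left of the insertion *GPA1*, the alpha subunit of the pheromone-coupled G protein, had log2 ratios of 0.08 in disome VIII-*ubp6Δ* and 0.25 in disome VIII. Next to it *TIM10*, a chaperone of the mitochondrial intermembrane space, had 1.02 and 1.34 on the same arrays, and *STP2*, a transcription factor activated by amino acids, had 0.75 and 0.79. To the right *ERG11*, lanosterol demethylase, had 0.42 in disome VIII-*ubp6Δ* and 0.71 in disome VIII. *SOD2*, mitochondrial superoxide dismutase, had 1.77 and 0.42, and *TDA3* had 0.71 and 0.70. Of these 6 genes only *TDA3* passed the test against the other disomes (difference 0.91, SE 0.21, adjusted p = 0.0492), and it lost the call in 6 of the alternative settings. *GPA1* had the lowest response of the 6, at 0.34 (SE 0.28).

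Genes of ribosome assembly made up 10 of the 76 duplicated genes that rose. Of 13 duplicated members of that list 10 passed the test, where 76 of all 249 duplicated genes tested did. *IMP3*, a component of the complex that processes the small-subunit rRNA, had log2 ratios of 1.00 in disome VIII-*ubp6Δ*, where the other disomes lay between −0.54 and 0.16 (median −0.28), and of 1.40 in disome VIII, where they lay between −0.60 and 0.50 (median 0.10). Its difference was 1.28 (SE 0.21, adjusted p = 0.0106). *NMD3*, the export adaptor of the large subunit, had 1.01 in disome VIII-*ubp6Δ* (other disomes −0.72 to −0.02, median −0.38) and 1.21 in disome VIII (other disomes −1.01 to 0.15, median −0.12), a difference of 1.40 (SE 0.23, adjusted p = 0.0106). On both arrays these genes lay above every other disome.

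*NOP10*, a protein of the H/ACA ribonucleoproteins that guide pseudouridylation, had 1.28 in disome VIII-*ubp6Δ* (other disomes −0.59 to 0.22, median −0.12) and 0.96 in disome VIII (other disomes −0.36 to 0.43, median 0.02), with a difference of 1.19 (SE 0.20). *SSF1*, needed for the large subunit, had 0.92 in disome VIII-*ubp6Δ* (other disomes −0.94 to −0.20) and 1.20 in disome VIII (other disomes −0.98 to 0.31), with a difference of 1.43 (SE 0.30, adjusted p = 0.0320). *UTP9*, of the small-subunit processome, had 0.41 in disome VIII-*ubp6Δ* and 1.06 in disome VIII, with a difference of 1.05 (SE 0.21, adjusted p = 0.0287). The other members that rose were the RNA helicases *RRP3* and *DBP8*, the exosome subunit *RRP4*, and *CIC1* and *IPI1* of large-subunit assembly, with differences of 0.96 to 1.25. *GAR1*, *RPF1* and *RIX1* had differences of 0.99, 1.05 and 0.85 and did not pass (adjusted p = 0.104 to 0.174).

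*SSZ1* had the lowest adjusted p of the duplicated genes. It encodes the Hsp70-like subunit of the ribosome-associated complex, which assists proteins as they leave the ribosome. Its log2 ratio was 1.03 in disome VIII-*ubp6Δ*, where the other disomes lay between −0.59 and 0.15 (median −0.22), and 1.46 in disome VIII, where they lay between −0.48 and 0.21 (median 0.15). The difference was 1.35 (SE 0.16, adjusted p = 0.00263). Its partner in the complex, the J-protein *ZUO1*, lies on chromosome VII and is described with the genes of other chromosomes.

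Among the other duplicated genes that rose are 6 with roles in metabolism, signalling and cell division. *DOG2*, a 2-deoxyglucose-6-phosphate phosphatase, had almost the same ratio on both arrays, 1.67 in disome VIII-*ubp6Δ* and 1.68 in disome VIII, where the other disomes lay between −0.14 and 0.66 and between −0.92 and 0.84. Its difference was 1.48 (SE 0.27, adjusted p = 0.0179). *ENO2*, the main enolase of glucose-grown cells, had 1.24 and 0.83, with a difference of 1.14 (SE 0.24, adjusted p = 0.0414). *TRR2*, mitochondrial thioredoxin reductase, had 1.06 and 0.98, with a difference of 1.14 (SE 0.23, adjusted p = 0.0287). These genes had similar ratios on the 2 arrays.

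*STE20*, the kinase that couples the pheromone receptor G protein to the MAP kinase cascade, had 0.34 in disome VIII-*ubp6Δ* and 1.01 in disome VIII, with a difference of 0.90 (SE 0.17, adjusted p = 0.0202). *MYO1*, the heavy chain of the myosin in the contractile ring, had 1.52 and 0.79, with a difference of 1.44 (SE 0.32, adjusted p = 0.0465). The call of *MYO1* was lost with normexp background correction (difference 0.89, adjusted p = 0.134), with only spots well above background in both dyes (adjusted p = 0.121), with the deposited table (adjusted p = 0.122), with duplicated values of other disomes kept and with either array alone. *OYE2*, an NADPH oxidoreductase, had 1.94 in disome VIII-*ubp6Δ* and 0.39 in disome VIII, with a difference of 1.43 (SE 0.30, adjusted p = 0.0291). In these genes the 2 arrays differed more, and all 6 lay above every other disome on both.

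None of the duplicated genes named next, of the proteasome, ergosterol synthesis and amino acid metabolism, passed the test. The proteasome members *RPN1* and *RPN10*, subunits of the regulatory particle, and *ECM29*, which tethers it to the core, had differences of 0.97, 0.78 and 0.96 (SE 0.24, 0.19 and 0.25, adjusted p = 0.0664 to 0.0893). In ergosterol synthesis *ERG9*, squalene synthase, had 0.77, *ERG7*, lanosterol synthase, 1.02, *NCP1*, the reductase that serves Erg11, 1.00, and *ERG11* itself 0.67 (adjusted p = 0.0595 to 0.249). In amino acid metabolism *THR1*, homoserine kinase, had a difference of 0.91, *ARG4*, argininosuccinate lyase, 0.66, *BAT1*, the mitochondrial branched-chain aminotransferase, 1.31, and *MUP3*, a methionine permease, 1.28. Of these *ARG4* had the largest gap between arrays, with a log2 ratio of 1.16 in disome VIII-*ubp6Δ* and 0.22 in disome VIII.

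Among the ribosomal proteins of chromosome VIII *RPS4B* rose (0.75 in disome VIII-*ubp6Δ*, 0.97 in disome VIII, difference 0.88, SE 0.17, adjusted p = 0.0206). The differences of *RPL14B*, *RPS20*, *RPL8A*, *RPS27B* and *RPL42B* were 1.15, 0.62, 0.70, 0.93 and 0.80 and did not pass. Many yeast ribosomal proteins are encoded by 2 similar genes, so a probe may also read the other copy.

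Metal and sugar transporter genes had wide ranges among the other disomes. The metallothionein genes *CUP1-1* and *CUP1-2*, identical copies that the probes cannot tell apart, had log2 ratios of 1.39 and 1.40 in disome VIII-*ubp6Δ* and of 1.78 and 1.73 in disome VIII. The other disomes ran from −1.23 to 1.09 in these genes, and their differences of 1.49 and 1.47 did not pass the test (adjusted p = 0.422 and 0.405). *HXT1*, a low-affinity glucose transporter, had 0.71 in disome VIII-*ubp6Δ* and 1.28 in disome VIII, and *HXT4*, of higher affinity, had −0.14 and −0.40, where the other disomes spanned −3.10 to 0.68 and −3.47 to 1.05 for *HXT1* and −1.85 to 0.69 and −3.70 to 0.24 for *HXT4*. *HXT5*, a transporter of slow-growing cells, had 1.58 and 1.25, and its highest values in other disomes were 1.54 and 1.95. The extra copy thus gave no call in any of the 3 transporter genes (difference 1.30, 0.53 and 0.91).

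The lowest copy-number responses among genes with a symbol were those of *IMD2*, −0.14 (SE 0.56), *AHT1*, −0.08 (SE 0.23), *PAU13*, 0.16, *VMR1*, 0.32, and *GPA1*, 0.34. *IMD2*, an IMP dehydrogenase, is near the right end, where it had log2 ratios of 0.48 in disome VIII-*ubp6Δ* and −0.34 in disome VIII, inside the range of the other disomes (−0.76 to 1.22 and −1.86 to 0.98). *AHT1* was dim, with strain and reference signals of 34.6 and 48.8 in disome VIII-*ubp6Δ* and of 124 and 109 in disome VIII. On the array of disome VIII a share of 0.5 of its spots was well above background in each dye. *PAU13* is a seripauperin, of a large family near chromosome ends. The next were *SPS100*, a spore wall gene, 0.35, *PXP3* and *GND1*, 6-phosphogluconate dehydrogenase, both 0.37, and *YAP1801* and *STE12*, the transcription factor of the pheromone response, both 0.44. None of these 10 passed the test against 1 (adjusted p = 0.0514 for *AHT1*, and 0.287 to 0.757 for the rest).

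The highest responses among genes with a symbol were those of *SPL2*, an inhibitor of low-affinity phosphate transport, 2.37 (SE 1.38), *YHK8*, 1.77 (SE 0.55), and *PCL5*, a cyclin induced by amino acid starvation, 1.64 (SE 0.88). *CDC23*, a subunit of the anaphase-promoting complex, came next, with log2 ratios of 0.97 in disome VIII-*ubp6Δ* and 2.14 in disome VIII. *SPL2* itself was at 0.89 in disome VIII-*ubp6Δ* and 1.02 in disome VIII, close to a doubling. Its other disomes lay between −5.37 and 0.09 (median −1.30) and between −4.57 and 0.30 (median −0.60), so the size of this response comes from the low values of the other disomes. In *PCL5* the 2 arrays had log2 ratios of 2.23 in disome VIII-*ubp6Δ* and 0.95 in disome VIII. On the array of disome VIII the reference signal of *CDC23* was not well above background.

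On the other chromosomes few genes set disome VIII apart. Of 5368 genes tested 0 rose (0%) and 3 fell (0.0559%), by limma as above. At an unadjusted p under 0.05, 26 were higher and 33 lower. The genes that fell were *TRP1*, *COS7* and *CWH41*, and only *COS7* was low on both arrays. With slide-mates only as the comparison 7 rose and 5 fell, and with the slide as a term 3 rose and 7 fell, so the list of other-chromosome calls depends on how the slide is treated.

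*TRP1*, which encodes phosphoribosylanthranilate isomerase of tryptophan synthesis and is a strain marker, had a log2 ratio of −9.49 in disome VIII-*ubp6Δ*, where the other disomes lay between −0.63 and 0.19 (median −0.20). In disome VIII it had 0.19, where the others lay between −0.12 and 0.95 (median 0.37). The strain signal was 4.58, not well above background, and the reference signal 3267 on the array of disome VIII-*ubp6Δ*. This is at least 168-fold lower in the strain, taking the lowest signal well above background in the strain's dye, 19.5, as a floor. On the array of disome VIII the strain signal was 176 and the reference signal 153. The call on the mean of both arrays (difference −4.74, SE 0.25, adjusted p = 2.24e-07) thus rests on the *ubp6Δ* array, and on the array of disome VIII alone the difference was −0.15. It did not pass against slide-mates (difference −4.45, adjusted p = 0.143) or with the disome as a replicate block in a fit of 24 arrays (adjusted p = 0.0555). *TRP1* is not listed as disrupted in disome VIII-*ubp6Δ* apart from the *trp1* allele of the W303 background.

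*COS7*, of a family of genes near chromosome ends, had log2 ratios of −2.27 in disome VIII-*ubp6Δ* (other disomes −0.37 to 1.08, median 0.42) and −2.41 in disome VIII (other disomes −0.16 to 1.83, median 0.61, n = 7). Its difference was −2.83 (SE 0.28, adjusted p = 0.00432), and −2.93 among slide-mates. With normexp background correction the difference was −0.72 and did not pass (adjusted p = 0.440 by limma), and with either array alone the call was lost (adjusted p = 0.109 for the array with *UBP6* and 0.0511 for the *ubp6Δ* array). The signals were low on both arrays, 7.14 in the strain and 34.6 in the reference for disome VIII-*ubp6Δ* and 11.4 in the strain and 47.4 in the reference for disome VIII. The strain signal was not well above background on either array. The drop is at least 1.78-fold in disome VIII-*ubp6Δ*, and no fold can be given for disome VIII. *COS7* had values in only 7 other disomes, fewer than the 8 that the rule on named genes asks for on other chromosomes, and was named after its values were seen.

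*CWH41*, glucosidase I of N-glycan processing, had −0.58 in disome VIII-*ubp6Δ*, inside the range of the other disomes (−1.11 to −0.10, median −0.56), and −2.22 in disome VIII, far below the range of −0.42 to 0.17 (median −0.04). The 2 spots of the disome VIII array gave −2.25 and −2.19, with a strain signal of 859 and a reference signal of 4020. The call (difference −1.10, SE 0.22, adjusted p = 0.0291) rests on this array, and on the *ubp6Δ* array alone the difference was −0.04. Against slide-mates *CWH41* differed by −0.26 in disome VIII-*ubp6Δ* and by −2.22 in disome VIII. Its difference was −1.31 both in the fit with slide-mates only and with the slide as a term, and it passed in both. With the disome as a replicate block in a fit of 24 arrays *CWH41* did not pass (adjusted p = 0.187). It also lost the call with duplicated values of other disomes kept.

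**Figure D3:**
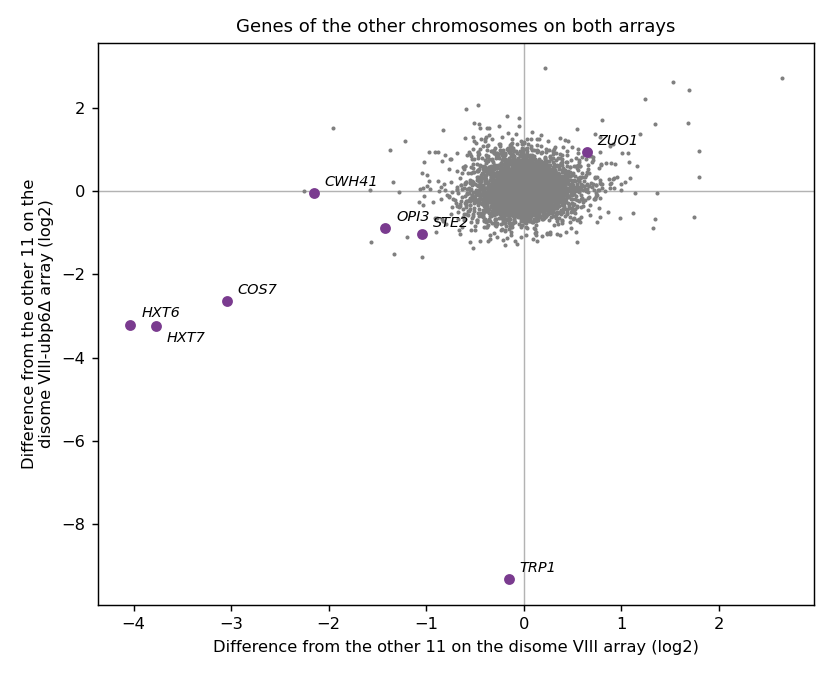
Difference from the other 11 disomes of the same genotype for 5368 genes outside chromosome VIII, with disome VIII on the horizontal and disome VIII-ubp6Δ on the vertical axis (log2). Most points form a round cloud near 0, COS7, HXT6, HXT7, OPI3 and STE2 lie low on both axes, ZUO1 lies high on both, CWH41 is low only in disome VIII and TRP1 only in disome VIII-ubp6Δ.

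Over the genes of other chromosomes the deviations of the 2 arrays from the other 11 had a correlation of 0.13 (n = 5368 genes, which are not independent). The values of disome VIII lay outside the range of the other disomes on both arrays, in the same direction, in 55 of 5368 genes (1.02%), 32 above and 23 below. In the other disomes the same share was 1.12% (disome II) to 14.4% (disome XII), so disome VIII had the lowest of the 12. Beyond 1 on the log2 scale in the same direction on both arrays were 41 of 5411 genes (0.758%), 34 higher and 7 lower, against 17 genes (disome IX) to 231 genes (disome XV) in the other disomes. Among the 34 are the markers *ADE1* and *LYS2*, and the 7 lower genes were *COS7*, *SPS4*, *STE2*, *FET3*, *ARG3*, *BAR1* and YDR008C. Of these 7 only *COS7* and *STE2* lay below every other disome on both arrays, and the rest lay inside the range of the other disomes on both. *ARG3*, at −1.13 in disome VIII-*ubp6Δ* and −1.21 in disome VIII, was as low in the other disomes (medians −1.07 and −1.06).

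Genes that use or act with products of duplicated genes were examined where they stood out, and were named after their values were seen. *ZUO1*, the partner of *SSZ1*, had a log2 ratio of 0.72 in disome VIII-*ubp6Δ*, above the other disomes (−0.55 to 0.34, median −0.28), and 0.63 in disome VIII, above the other disomes (−0.28 to 0.36, median −0.05). Its difference of 0.80 (SE 0.20) did not pass the test over all disomes (adjusted p = 0.0878). Among slide-mates the difference was 0.84 (adjusted p = 0.00535) and with the slide as a term it was also 0.84 (adjusted p = 0.00974). *ZUO1* lay above the other disomes on both arrays, and its call depends on the treatment of the slide.

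Most genes of ribosome assembly on other chromosomes had a small positive difference. Of 125 such genes tested 116 had a positive difference, 83 were above on both arrays and 3 below on both. Over all 5368 genes 53.2% had a positive difference, 28.2% were above on both arrays and 23.5% below on both. The median difference of the list was 0.24, against 0.02 over all genes of other chromosomes, with 0.16 in disome VIII-*ubp6Δ* and 0.29 in disome VIII. Within the slides the medians were 0.20 in disome VIII-*ubp6Δ* and 0.17 in disome VIII. No member outside chromosome VIII passed the test and 1 was above at an unadjusted p under 0.05. *NOC4* and *IMP4*, of small-subunit assembly, were above all other disomes on both arrays by a narrow margin, with log2 ratios of 0.22 and 0.30 in disome VIII-*ubp6Δ* and of 0.07 and 0.60 in disome VIII. In contrast, 128 ribosomal protein genes of other chromosomes had a median difference of 0.01.

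Most genes of inositol, phospholipid and fatty acid synthesis, many of them repressed by Opi1, had a negative difference on other chromosomes, and none passed the test over all disomes. *OPI1* itself, on chromosome VIII, had a log2 ratio of 0.22 in disome VIII-*ubp6Δ* (other disomes −0.55 to 0.32, median −0.34) and 0.18 in disome VIII (other disomes −0.49 to −0.04, median −0.36). Its difference of 0.48 (SE 0.18, adjusted p = 0.530) places it among the 22 duplicated genes with a response below 0.5. The other duplicated members, *EPT1*, ethanolaminephosphotransferase, and *INM1*, inositol monophosphatase, had differences of 0.88 and 1.31 that did not pass. Of 19 members on other chromosomes 3 had a positive difference (15.8%), where 53.2% of all 5368 genes did. On both arrays 12 of the 19 were below (63.2%) and 0 above, where 23.5% and 28.2% of all genes were. The median of the 19 was −0.22, with −0.24 in disome VIII-*ubp6Δ* and −0.32 in disome VIII. Among slide-mates it was −0.38 in disome VIII-*ubp6Δ* and −0.29 in disome VIII.

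*OPI3*, the methyltransferase that completes phosphatidylcholine synthesis, stood furthest out. It had −0.37 in disome VIII-*ubp6Δ*, below the other disomes (−0.17 to 1.15, median 0.51), and −1.27 in disome VIII, below the other disomes (−0.62 to 0.93, median 0.07). Its difference of −1.16 (SE 0.36) did not pass over all disomes (adjusted p = 0.264). Among slide-mates it was −1.29 (adjusted p = 0.0252), and −1.29 with the slide as a term (adjusted p = 0.0285). *CHO1*, phosphatidylserine synthase, *CPT1*, cholinephosphotransferase, and *ITR1*, an inositol transporter, had differences of −0.59, −0.54 and −0.50. All 3 lay below every other disome on both arrays and none passed the test (unadjusted p = 0.0442, 0.0217 and 0.0505). *HNM1*, the choline transporter, had −0.63 in disome VIII-*ubp6Δ* and −1.11 in disome VIII. It was among the 5 genes that fell against slide-mates (difference −1.12, adjusted p = 0.0111), and over all disomes its difference was −0.77 (SE 0.37). *INO1*, inositol-3-phosphate synthase and the best known target of Opi1, differed by −0.02 (SE 0.93) with log2 ratios of 1.34 in disome VIII-*ubp6Δ* and 0.47 in disome VIII.

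Most genes specific to a cells and of the pheromone response also had a negative difference. The strains are MATa, and 7 markers of a cells on other chromosomes had differences that were all below 0, with a median of −0.77 and with 6 below on both arrays. Over all 5368 genes of other chromosomes 23.5% were below on both arrays. Among slide-mates the median of the 7 markers was −0.65 in disome VIII-*ubp6Δ* and −0.61 in disome VIII. *STE2*, the receptor for alpha-factor, had −1.18 in disome VIII-*ubp6Δ* and −1.36 in disome VIII, where the lowest other values were −0.66 and −0.88. Its difference was −1.04 (SE 0.36, adjusted p = 0.390), and −0.95 both against slide-mates (adjusted p = 0.0132) and with the slide as a term (adjusted p = 0.122). In a culture measured in bulk, fewer cells with a transcript and less transcript per cell cannot be told apart. *STE6*, the exporter of a-factor, had −0.70 and −0.48, and *MFA2*, a gene for a-factor, −0.75 and −1.14, and both lay just below the other disomes on both arrays.

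The other a-cell markers overlapped with the other disomes on at least 1 array. *BAR1*, the protease that degrades alpha-factor, had −1.54 in disome VIII-*ubp6Δ* and −1.13 in disome VIII (other disomes −2.10 to 0.23 and −1.64 to 1.32). *AGA2*, the a-agglutinin subunit, had −1.32 in disome VIII-*ubp6Δ*, below the other disomes (−0.55 to 1.99), and −0.43 in disome VIII, inside their range (−0.54 to 2.44). *MFA1*, also a gene for a-factor, had −0.50 and −1.09, inside the ranges of the other disomes on both arrays (−1.85 to 2.16 and −1.15 to 2.88). *ASG7*, another of the a-cell markers, had −0.86 and −0.82, also inside those ranges (−1.65 to 1.30 and −1.41 to 2.54). Against slide-mates *MFA1* and *ASG7* differed by 0.33 and 0.12 in disome VIII-*ubp6Δ* and by −0.54 and −0.47 in disome VIII. Among genes of alpha cells *STE3*, the receptor for a-factor, had 1.45 in disome VIII-*ubp6Δ*, where 10 other disomes lay between −1.02 and 1.87 (median 0.21), and 2.35 in disome VIII, where 5 others lay between −0.09 and 2.36 (median 0.95). Its reference signal on the array of disome VIII, 11.8, was not well above background, and it was measured in too few disomes for the test. *SAG1*, alpha-agglutinin, differed by 0.07. Of 28 pheromone response genes on other chromosomes 4 had a positive difference (14.3%) and 14 were below on both arrays (50%), with a median of −0.18. Over all 5368 genes these shares were 53.2% and 23.5%. Within the pheromone pathway 3 genes lie on chromosome VIII, *STE20*, which rose, and *GPA1* and *STE12*, which had differences of 0.34 and 0.44 and did not pass.

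**Figure D4:**
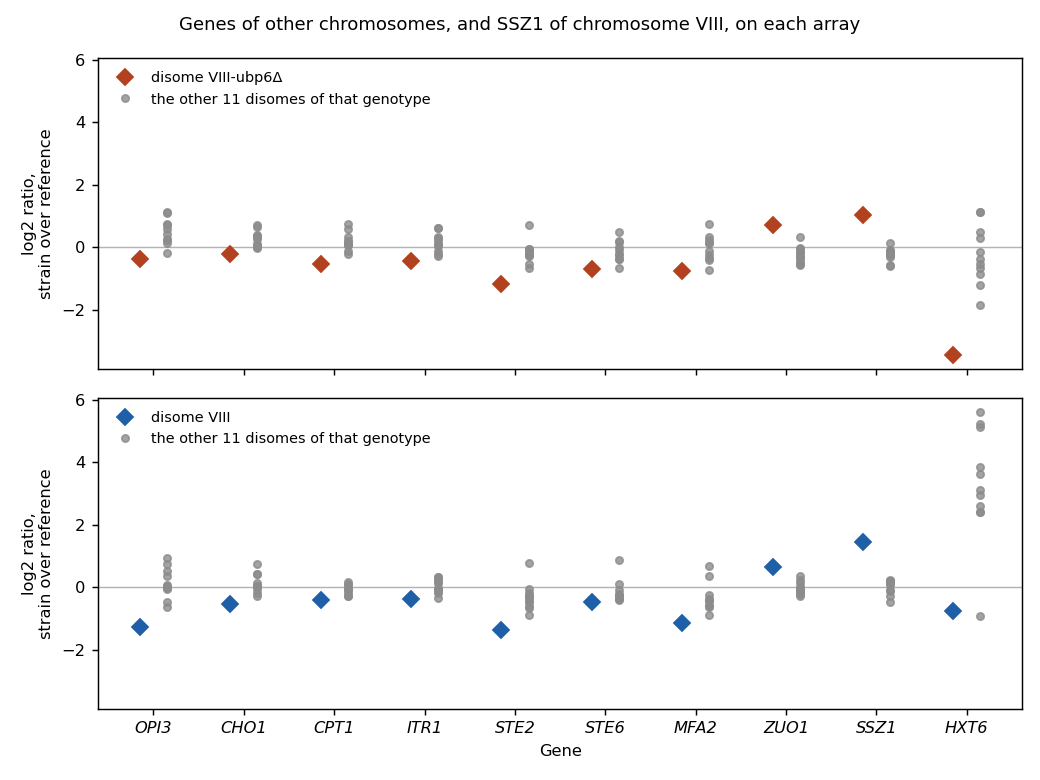
Log2 ratio of strain over reference (vertical axis) for 10 genes, 9 of them on other chromosomes and SSZ1 on chromosome VIII. Diamonds mark disome VIII-ubp6Δ in the upper panel and disome VIII in the lower panel, and grey points the other disomes of that genotype. OPI3, CHO1, CPT1, ITR1, STE2, STE6 and MFA2 lie below all grey points, ZUO1 and SSZ1 lie above them, and HXT6 lies below all grey points in the upper panel and below all but 1 in the lower panel.

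Most phosphate genes, which Pho4 activates when phosphate is scarce, had a positive difference, and none passed the test. Of 21 members on other chromosomes 18 had a positive difference (85.7%) and 16 were above on both arrays (76.2%), with a median of 0.48. Over all 5368 genes these shares were 53.2% and 28.2%. The largest differences of the list were those of *PHO89*, a sodium-phosphate transporter, of 2.69 (SE 1.31), and *PHO5*, an acid phosphatase, of 2.22 (SE 1.24). Among slide-mates the difference was 1.57 for *PHO89* and 0.74 for *PHO5*. *PHM6* had 0.62 in disome VIII-*ubp6Δ* (other disomes −4.70 to −0.09, median −1.75) and −0.23 in disome VIII (other disomes −4.33 to −0.60, median −1.67), so in this gene it is the other disomes that lie far below the reference. *VTC3*, of the polyphosphate polymerase, had −0.06 and 0.11 with the others at −2.57 to −0.12 and −2.37 to 0.07. Against slide-mates the median over the list was 0.15 in disome VIII-*ubp6Δ* and 0.14 in disome VIII, compared with 0.61 in disome VIII-*ubp6Δ* and 0.29 in disome VIII against all 11. The medians of this list were thus smaller within the slides. *PHO84*, the high-affinity transporter, had −0.10 and −0.12, with a difference of 0.50 (SE 0.80).

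*HXT6* and *HXT7*, near-identical high-affinity glucose transporter genes that the probes may not tell apart, had the 2 lowest differences after *TRP1*. *HXT6* had −3.44 in disome VIII-*ubp6Δ*, below all other disomes (−1.85 to 1.13, median −0.36), and −0.77 in disome VIII. There the other disomes lay between −0.93 and 5.60, with a median of 3.10. Its difference was −3.62 (SE 1.12, adjusted p = 0.226), −3.07 among slide-mates (adjusted p = 0.106) and −3.07 with the slide as a term (adjusted p = 0.0337). *HXT6* had a strain signal of 1557 and a reference signal of 16911 on the array of disome VIII-*ubp6Δ*, and of 188 and 311 on the array of disome VIII.

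The median over all genes of other chromosomes was 0.02. The proteasome (41 genes, median −0.01), ergosterol synthesis (24 genes, 0.00) and cytokinesis (24 genes, 0.01) lay near that value, and chaperones (36 genes, 0.13) and methionine synthesis (29 genes, 0.23) were above it. Stress-induced genes had a median of 0.23 in disome VIII-*ubp6Δ* and −0.19 in disome VIII, and genes of trehalose and glycogen of 0.41 and −0.31. Glycolysis genes had 0.35 and −0.10, and those of the respiratory chain 0.13 and −0.20. Within the slides the median of stress-induced genes was 0.36 in disome VIII-*ubp6Δ* and 0.01 in disome VIII. On the same arrays genes of trehalose and glycogen had 0.18 and −0.04 within the slides, and glycolysis genes 0.10 and −0.04. Those of the respiratory chain had −0.09 on both arrays within the slides. None of the members of these lists outside chromosome VIII passed the test.

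**Figure D5:**
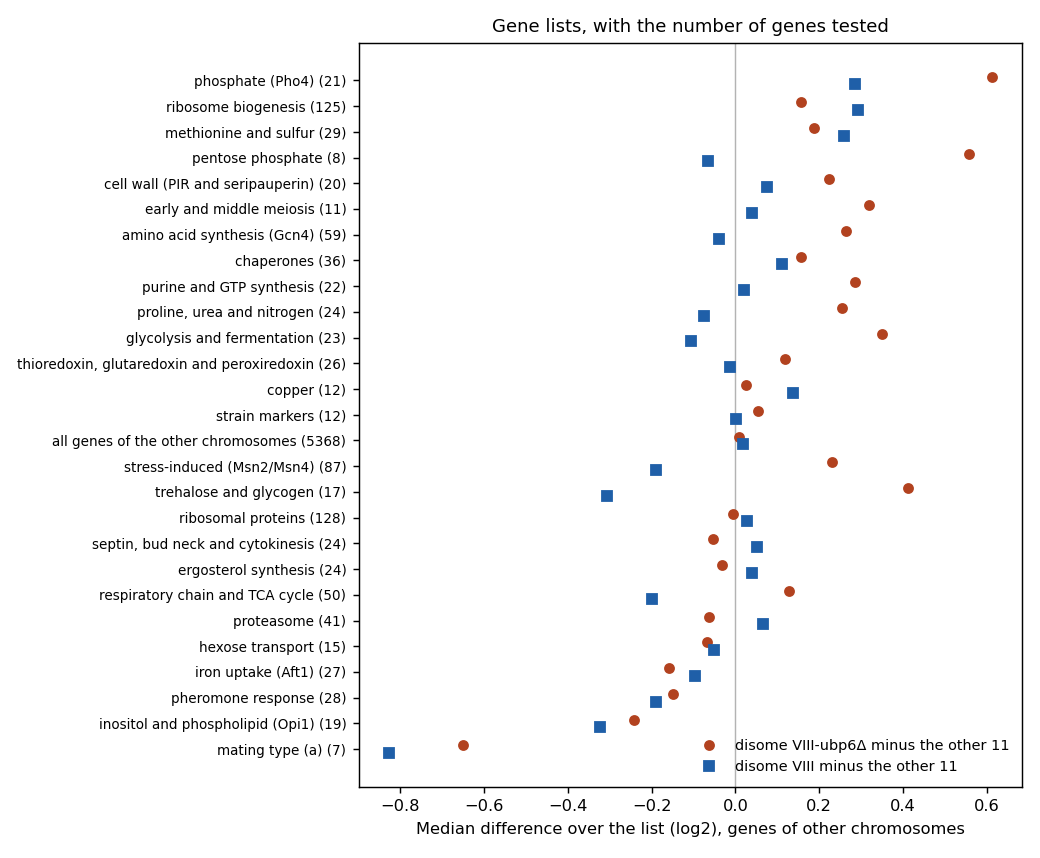
Median difference from the other 11 disomes of the same genotype (log2, horizontal axis) over the members of each gene list on other chromosomes, with the number of genes in brackets, a circle for disome VIII-ubp6Δ and a square for disome VIII. Phosphate and ribosome biogenesis genes lie above 0 in both, and inositol and phospholipid genes and markers of a cells lie below 0 in both, while the stress-induced, trehalose and glycolysis lists lie on opposite sides of 0.

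Whether the deletion of *UBP6* acted differently in disome VIII was tested as the difference between the 2 arrays of each disome, disome VIII against the other 11. Of 5617 genes 2 passed (0.0356%), *TRP1* and *CWH41*, and 144 had an unadjusted p under 0.05. These are the 2 genes with a low value on only 1 of the arrays, *TRP1* with a difference of −9.18 (SE 0.34) and *CWH41* with 2.12 (SE 0.30, adjusted p = 0.0154). On chromosome VIII 0 of 249 genes passed. The next were *ADE17*, of purine synthesis, with 1.68 (SE 0.33, adjusted p = 0.517), *APE1*, vacuolar aminopeptidase I, with 1.72 (SE 0.37, adjusted p = 0.634), and *POL1*, the catalytic subunit of DNA polymerase alpha, with −1.39 (SE 0.34, adjusted p = 0.970). The reference of the *ubp6Δ* array also gave little *UBP6* signal, and whether the references add to these differences was not tested. The 2 arrays of a disome also lay on different slides, which this test did not take into account. Against slide-mates *TRP1* differed by −9.36 in disome VIII-*ubp6Δ* and −0.24 in disome VIII, and *CWH41* by −0.26 and −2.22. On the same arrays *ADE17* differed from slide-mates by 1.52 and −0.41, *APE1* by −0.01 and −1.01, and *POL1* by −0.47 and 0.71. *TRP1* had strain signals of 4.58 in disome VIII-*ubp6Δ* and 176 in disome VIII, and reference signals of 3267 and 153. For *CWH41* the strain signals were 3029 in disome VIII-*ubp6Δ* and 859 in disome VIII, and the reference signals 4521 and 4020.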

How the data were processed

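RNA of 24 strains was hybridised against a reference on Agilent dual-colour arrays, 1 array per strain. The authors' software, Agilent Feature Extraction 10.7.1.1 at default settings, made the deposited intensity values (raw medians and processed signals, background-subtracted and dye-normalized) and the deposited log10 ratios of Cy5 over Cy3 for each spot. Deposited flags mark outlier, saturated and dim spots. The deposited table of per-sample values is probably in log2 of strain over reference, as it followed the spot ratios with r = 0.998 in disome VIII-*ubp6Δ* and 0.988 in disome VIII. Its column medians were −0.02 in disome VIII-*ubp6Δ* and 0 in disome VIII, and whether the authors centred it stays unknown.

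The log2 ratio was taken from the processed signals, Cy5 over Cy3, with the sign turned on the *ubp6Δ* arrays. Excluded were control spots, outliers and spots that neither dye lifted well above background. The rest were averaged for each probe, then for each gene (12512 spots, 6256 probes and 6225 names outside the controls). Of the 6176 nuclear open reading frames 5718 were matched to RefSeq (assembly R64), used for symbols and order. The files name another build, so no coordinates are given. Values of other disomes on their own duplicated chromosome were left out.

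Tests used limma 3.58.1 in R 4.3.3 (lmFit, eBayes, Benjamini-Hochberg adjustment) on 12 per-disome means or differences, with at least 6 other disomes measured. The lone disome is assumed to vary like the other 11, and p-values measure the spread among disomes. Members, gene lists and tests were chosen with earlier results of these data known. Named genes were the highest and lowest 10 past the test in at least 8 other disomes (strain markers apart), the 10 lowest and highest copy-number responses, 3 genes on each side of the insertion, strain markers, up to 4 duplicated members of each list, and 5 of the *ubp6Δ* difference. Alternatives covered background correction, dim and outlier spots, centring, the deposited table, the sign, slides, the replicate block and each array alone. The tests were tested on simulated data. Deviations of the 2 arrays of a disome had r of −0.06 to 0.64, 0.13 in disome VIII. The number of arrays limits the precision.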

Additional observations from a re-analysis of the deposited data

Results flagged for a closer look

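In 2 genes the difference between the *ubp6Δ* array and the array with *UBP6* was not the same in disome VIII as in the other 11 disomes, by limma on that difference. For *TRP1* it was −9.18 relative to the other disomes (log2, SE 0.34), where the low value stands on the *ubp6Δ* array. For *CWH41* it was 2.12 relative to them (SE 0.30), where the low value stands on the array of disome VIII. Each rests on 1 array, and no cause was tested.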

How the results depend on the processing

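The mean over the duplicated genes kept its direction under all settings but the sign as labelled, where it was −0.98 in disome VIII-*ubp6Δ* and the mean difference was −0.0946. It moved to 0.56 in disome VIII with normexp, and the mean difference of 0.92 to 0.78 with normexp, 1.04 with the *ubp6Δ* array alone and 0.83 with the array with *UBP6* alone. The count of duplicated genes that rose, 76, was 164 with slide-mates, 151 with the slide as a term, 154 without a replicate block, 1 with duplicated values of other disomes kept, and 0 with either array alone or the sign as labelled. Genes of other chromosomes that rose, 0, numbered 7 with slide-mates, 3 with the slide as a term, and 1 with no dim-spot filter or without a block. Those that fell, 3, numbered 5 with slide-mates or without a block, 7 with the slide as a term, 1 with both dyes above background, with the deposited table or with the *ubp6Δ* array alone, and 0 with the sign as labelled. Responses below 1 on chromosome VIII, 1, numbered 11 with normexp, 3 with both dyes above background, centring or the deposited table, 244 with the sign as labelled and 0 with the array with *UBP6* alone. Genes with another *ubp6Δ* difference, 2, numbered 1 with both dyes above background or the deposited table and 79 with the sign as labelled. The disomes are already averaged in pairs. With the disome as a replicate block in a fit of 24 arrays (consensus correlation 0.315), 115 duplicated genes and 1 other gene rose and 1 other fell, with *TRP1* at adjusted p = 0.0555 and *CWH41* at 0.187. Of 243 alternative values of 19 named results 171 kept their call, 63 lost it and 9 reversed, all with the sign as labelled: *MYO1* −0.31, *OYE2* −0.46, *TDA3* −0.000348, *NOP10* −0.26, *SSF1* −0.0705, *ENO2* −0.26, *TRR2* −0.0755 and *TRP1* 4.59, and 9.48 in its *ubp6Δ* difference. Where a value changed, the cause was not tested. Dim spots, as for *COS7*, hold only bounds.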
